A study of Saccharomyces cerevisiae with 2 samples.

Results

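The subject is a single microarray, 1 of the 2 arrays of the study, on which DNA from yeast recovering without an iron chelator was set against DNA from the same strain in G1. It was taken whole: all 41480 probes of its column were used, on 16 nuclear chromosomes, and none was chosen for its value. Both DNA samples came from Saccharomyces cerevisiae strain WFA73, genotype mec1, so the checkpoint defect is shared by both sides of the ratio and no strain with working Mec1 is part of it. The G1 DNA came from cultures synchronized with alpha factor. The recovery DNA came from cells released into 200 mM hydroxyurea (HU) for 1 h, filtered free of the drug and kept in fresh medium for 1 h without BPS, the iron chelator that the other recovery received at 0.8 micromolar. The allele behind the label mec1 and any suppressor mutation are not stated in the labels, and 1 strain was studied.

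Mec1 is the budding yeast counterpart of the kinase ATR. When HU drains the deoxynucleotide pool, replication forks slow or stop, and Mec1 signalling keeps stalled forks intact and holds back origins that have not yet fired. Cells without it lose forks, and their chromosomes break as they try to resume replication. In the Break-chip assay the free ends of broken chromosomes are repaired in agarose with a nucleotide that carries a dye, and the labelled DNA is sheared to an average of 500 bp and hybridised to probes tiled along the genome. A single break therefore lights up the probes around it rather than 1 base.

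Values are log2 ratios with the median of the array set to 0. A value of 1 at a place means that the ratio there was 2 times the ratio at the median probe. The ratio was read as recovery over G1, because the column carries the recovery sample's name. The sources used here do not state the numerator, and if G1 were the numerator every sign would turn and hills would be valleys. A higher copy number of DNA that had replicated and a larger number of broken ends per copy cannot be told apart in such a ratio. There was 1 array and no replicate, so no test was made, no p-value is given, and standard errors (SE) over probes cover the scatter inside the array alone.

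The ratios ran from 0.0835 to 19.5 with a median of 1.21. On the centred log2 scale the middle 50% of the probes lay between −0.53 and 0.57, and the 1st and 99th percentiles were −1.51 and 1.52. Neighbouring probes, a median of 257 bp apart, differed with a noise SD of 0.35. Averaging the probes within 2 kb either side, a median of 15 probes, gave a smoothed track with an SD of 0.62 and a range from −1.69 to 1.66. Tracks made separately from odd-numbered and even-numbered probes correlated at 0.958 over 20740 positions, which share the same hybridisation. Signal was therefore coherent between separate probes of the same stretch.

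After smoothing, the landscape was one of rolling hills and valleys. Peaks narrower than the smoothing window would be blunted by it. Centring on the median puts about as many probes on the low as on the high side. The smoothed values had a skewness of 0.03 and an excess kurtosis of −0.88, where a normal distribution has 0 for both. The 10th percentile of the smoothed track was −0.79 and the 90th was 0.85, a 3.13-fold range between strong and weak parts of the genome. Smoothed values above 1 were found at 2174 probes (5.24%) and values below −1 at 1507 (3.63%).

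**Figure D1:**
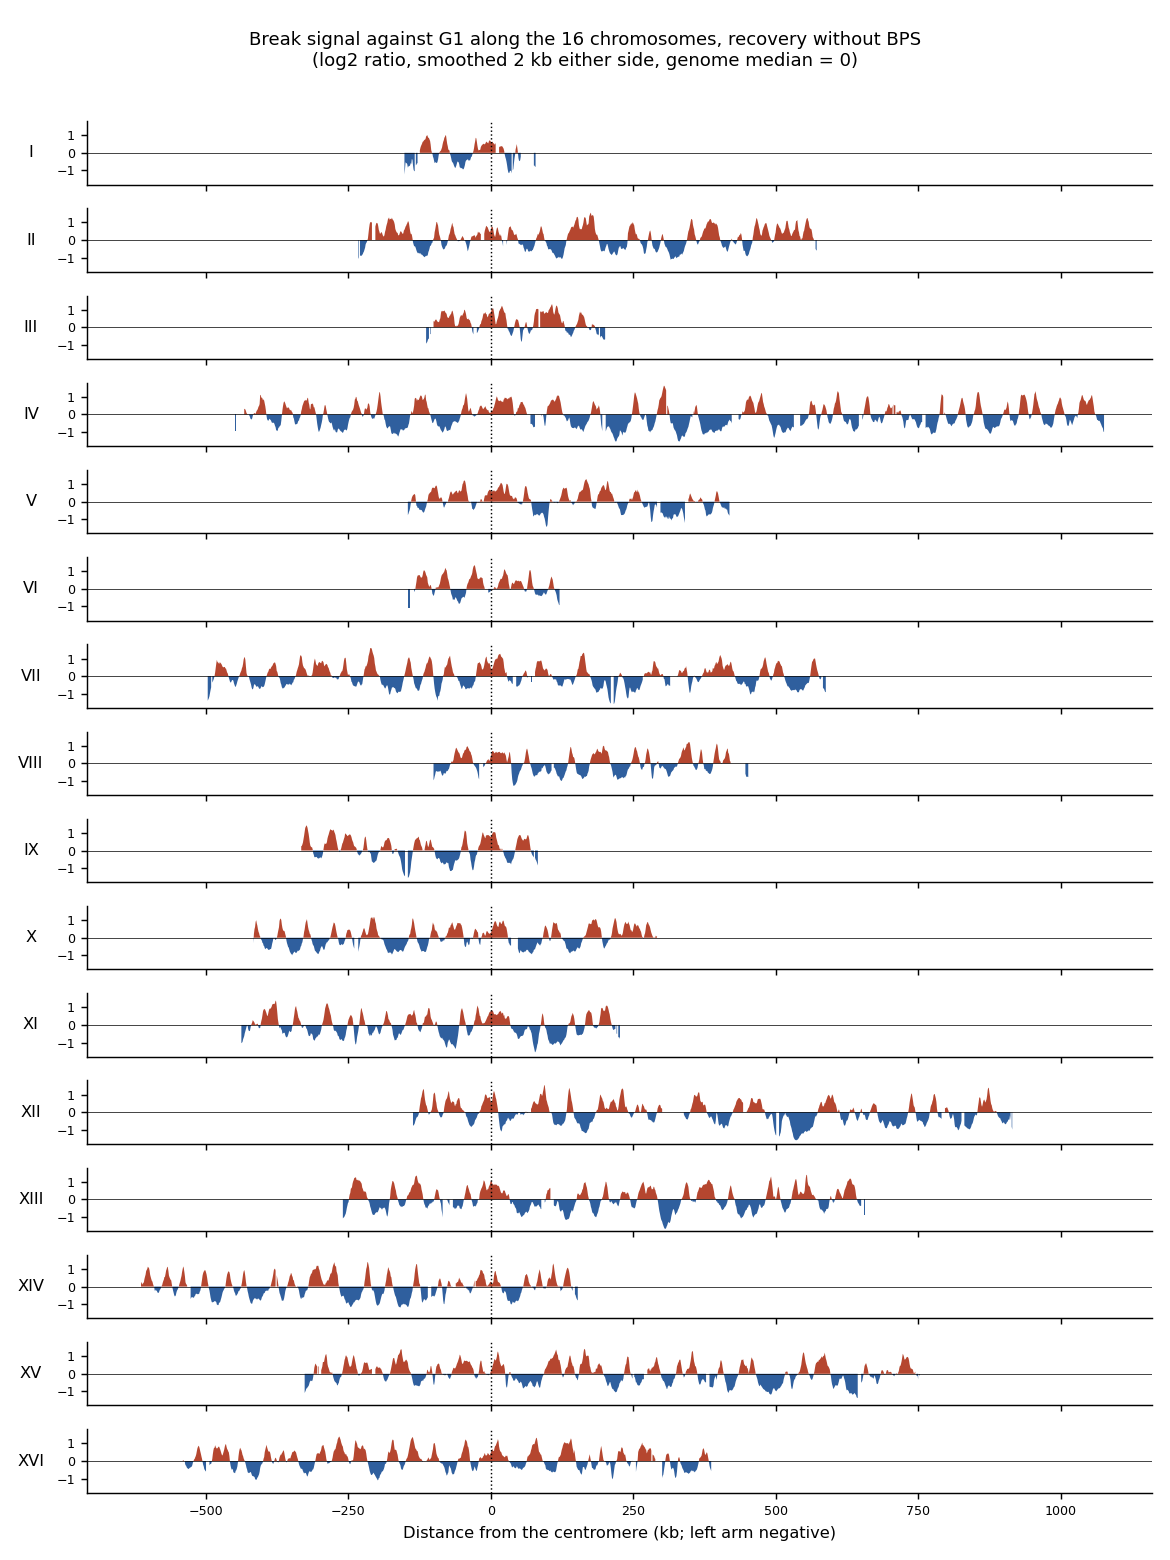
Smoothed log2 ratio (vertical axis, genome median 0) along each of the 16 chromosomes, drawn against distance from the centromere in kb, with stretches above the median in red and below it in blue. Hills and valleys alternate on every chromosome, no smoothed value passes 1.66 or −1.69, and the stretch around the dotted centromere line is red on 15 of the 16 chromosomes.

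Most of the variation lay between stretches of about 10 kb. Differences between the means of the 16 chromosomes held 1.55% of the variance of the probes. Means of 50 kb tiles held 20.9% of it, and means of 10 kb tiles 63.8%. The remaining 36.2% was within the 10 kb tiles and includes the noise of single probes. Knowing the chromosome said little about a probe, whereas knowing its 10 kb neighbourhood said a great deal.

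The same scale appeared in the correlation between probes at a given distance on 1 chromosome. Pairs less than 1 kb apart correlated at 0.756. The correlation was 0.519 at 5.5 kb, 0.246 at 10.5 kb and 0.061 at 15.5 kb, and it reached 0.5 of its first value at 7.999 kb. It first dropped below 0 at 19.5 kb. The lowest point was −0.066 at 28.5 kb.

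No regular wave was seen. A strictly periodic pattern would bring the correlation back up at its period, but beyond 19.5 kb and up to 100 kb the values stayed between −0.066 and 0.026. The weak rise after the first trough reached −0.015 at 44.5 kb, and a further trough of −0.057 followed at 58.5 kb. Genes and probes along a chromosome are not independent replicates, and these correlations describe 1 hybridisation.

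**Figure D2:**
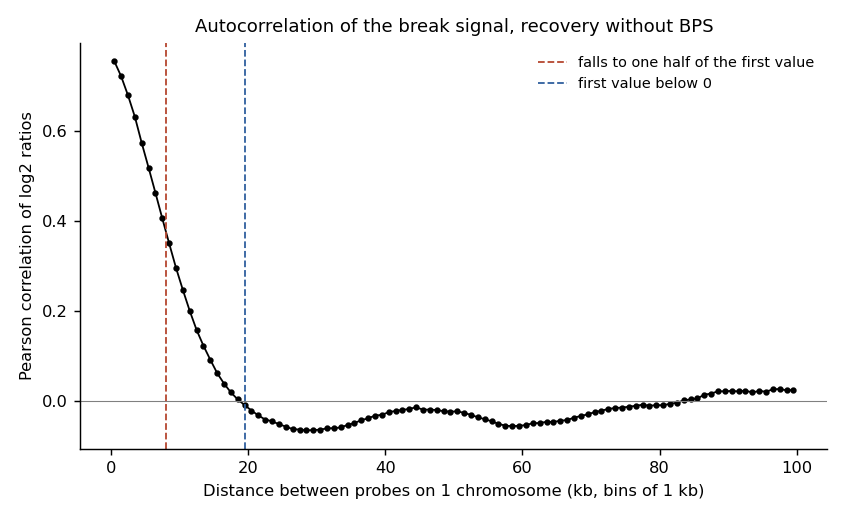
Pearson correlation of the log2 ratios of probe pairs (vertical axis) against their distance on the chromosome in kb, in bins of 1 kb. The curve starts at 0.756, reached 0.5 of that at 7.999 kb (red line), dropped below 0 at 19.5 kb (blue line) and stayed between −0.066 and 0.026 out to 100 kb.

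The chromosomes shared this scale. The distance at which the correlation had dropped to 0.5 of its first value lay between 6.41 kb, on III, and 8.72 kb, on XII, with a median of 7.91 kb over the 16 chromosomes. On VI and XIV it was 6.49 and 6.55 kb, and on II and XIII 8.64 and 8.55 kb. The distance at which the correlation dropped below 0 varied more, from 12.5 kb on XIV to 58.5 kb on V.

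Domains were then read from the smoothed track as runs of at least 5 neighbouring probes above the median (hills) or below it (valleys), broken at the 59 gaps of more than 4 kb without probes. There were 295 hills and 325 valleys. Because the level is the median, both kinds must cover about the same length, and they did with 5629 and 5602 kb. Hills had a median width of 15.6 kb, with an interquartile range of 9.76 to 26.4 kb. Valleys had a median of 13.1 kb, with an interquartile range of 5.97 to 25.4 kb. Hills rose further from the median than valleys dropped. Summits had a median of 0.95 and floors one of −0.67, and 131 hills passed 1 while 73 valleys passed −1. Narrower than 10 kb were 76 hills and 126 valleys. A median hill held 8 protein-coding genes and a median valley 6. Gaps or chromosome ends bounded 84 of the valleys and 22 of the hills, and the 241 valleys without such a bound had a median width of 14.4 kb.

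The number of hills ran close to the length of the chromosome. The density lay between 2.16 hills per 100 kb, on XII, and 2.98, on VI. Successive summits lay a median of 36.5 kb apart, with an interquartile range of 23.8 to 51.3 kb over 279 intervals, and the floors of successive valleys 35.5 kb apart. The intervals between summits varied with a coefficient of variation of 0.543 and ran from 3.21 to 142 kb. The spacing depends on smoothing, with a median of 23.9 kb when probes within 1 kb either side were averaged.

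Hills of middle width mostly had 1 summit. Of the 114 hills between 10 and 20 kb wide, 102 had a single maximum (no higher probe within 5 kb). Probes that tie at a maximum appear to be counted apart, since a hill 2.395 kb wide on XVI had 4 maxima. Counts of maxima can therefore exceed the number of separate summits. The heights of the 114 had a median of 0.93 and quartiles at 0.80 and 1.10. The 76 hills narrower than 10 kb were low, with a median summit of 0.26, and the hills of 20 kb or more had a median of 1.16. Height thus differed more between narrow and middle widths than between middle and wide ones. Over the 295 hills Pearson's r between height and width was 0.653, as a description, since both come from the same track.

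Wider hills mostly had more than 1 maximum. A wide run has more room for maxima 5 kb apart, so this contrast with the middle widths follows in part from width. Of the 57 hills of 30 kb or more, 53 had at least 2 maxima, with a median of 3 and a highest count of 6. Their median summit was 1.19, above the upper quartile of 1.10 of the hills 10 to 20 kb wide. A summit is the highest value of its run, taken over more probes in a wide hill, so height is not independent of width. The 74 hills that had 1 maximum and passed 1 log2 unit were 17.5 kb wide at the median (interquartile range 13.6 to 22.9 kb) and 7.54 kb wide at 0.5 of their height. DER1 on II marked the widest of them at 35.2 kb, with a summit of 1.21. The tallest was at EKI1 on IV, an ethanolamine kinase gene, at 1.66 and 21.5 kb wide.

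**Figure D3:**
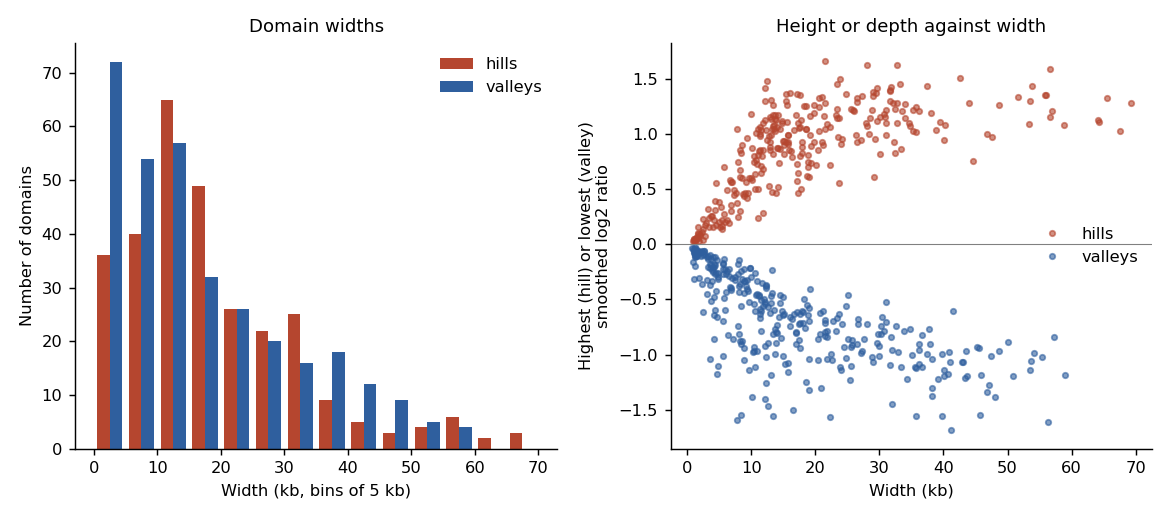
Left, number of hills (red) and valleys (blue) by width in bins of 5 kb. Right, the highest smoothed log2 ratio of each hill or the lowest of each valley against its width in kb, 1 point per domain. Hills 10 to 20 kb wide have a median height of 0.93, and hills of 30 kb or more, whose highest value is taken over more probes, have 1.19.

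Hills were steeper near their summits than valleys near their floors. For hills of 10 kb or more, the median signal was 1.05 to 1.06 within 2 kb of the summit, 0.55 to 0.60 at 3 kb and 0.41 to 0.45 at 5 kb on either side, and it met the genome median at about 9 to 11 kb. Valleys of 10 kb or more had −0.85 to −0.86 within 2 kb of the floor and −0.49 to −0.54 at 5 kb, and met the median at about 13 kb. The innermost values are raised or lowered by the choice of the extreme itself. In single hills above 1 log2 unit the flank on the side of lower coordinates had a median of 8.94 kb and the other 7.99 kb, and the former was the longer in 47 of 74.

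**Figure D4:**
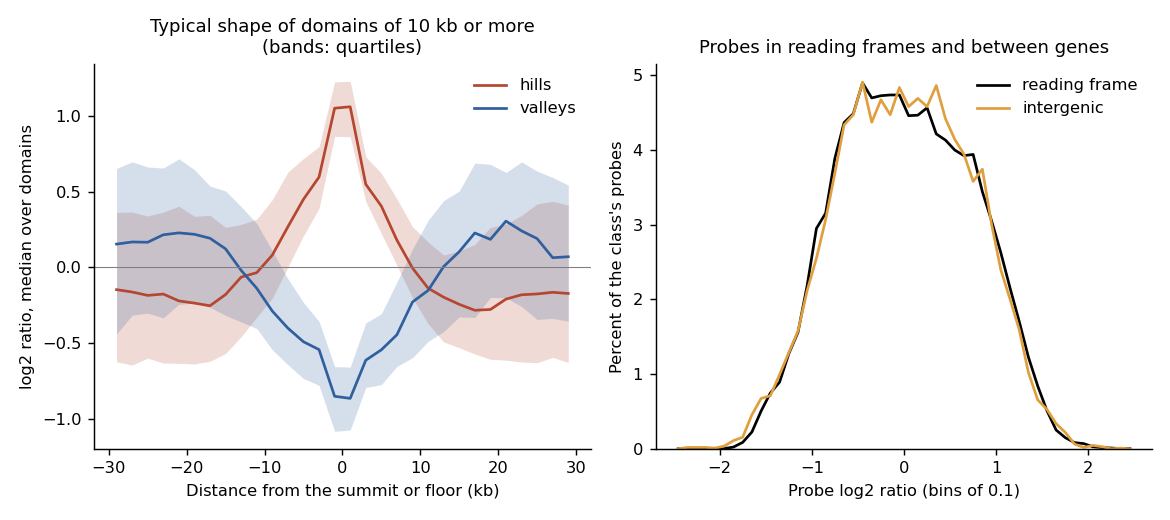
Left, median log2 ratio over the hills (red) and the valleys (blue) of 10 kb or more, against distance in kb from the summit or floor, with bands for the quartiles over domains. Right, percent of probes in bins of 0.1 log2 units for probes in reading frames (black) and between genes (orange). The hill curve drops from 1.06 to about 0.4 within 5 kb, and the curves of the probe classes run almost on top of each other.

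The 5 widest hills were between 64.2 and 69.2 kb wide. The widest lay on II from 735.6 to 804.8 kb, with 37 genes, a mean of 0.62 and its summit inside PCA1, a gene for a metal-transporting ATPase, at 1.28 ± 0.09 (SE, 15 probes). On III a hill from 13.99 to 81.47 kb held 41 genes and had its summit beside BIK1, a microtubule-associated protein gene, at 1.02 ± 0.06. BOI1, which acts in polarized growth, marked the summit of a hill on II from 35.6 to 101.2 kb, at 1.33 ± 0.08. The remaining pair crossed the centromeres of IV (425.8 to 490.1 kb, summit at DAS2, 1.11 ± 0.08) and XI (409.9 to 474.1 kb, summit at URB1, a ribosome biogenesis gene, 1.12 ± 0.07). Each of the 5 had 4 or 5 maxima, counted as above.

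Of these widths, that of the hill at BOI1 moved least, between 48.4 and 79.3 kb over the other settings tried. When the array was centred on its mean, a shift of 0.017, the hill around PCA1 shrank to 21.1 kb and that around BIK1 to 28.6 kb, while those around DAS2 and URB1 measured 63.6 and 63.9 kb. With a level of 0.25 the hill around DAS2 measured 35.8 kb and that around URB1 10.2 kb.

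The 5 widest valleys were between 54.1 and 59.0 kb wide. SCC2, which encodes a subunit of the cohesin loader, sat at the floor of the widest, on IV from 812.8 to 871.8 kb, at −1.18 ± 0.06 (16 probes), and that valley held 35 genes and had a mean of −0.79. The valley on XII from 667.7 to 724.0 kb had 1 broad floor at YCS4, a condensin gene, at −1.61 ± 0.03 (12 probes), and a mean of −0.94, the lowest of the 5. Shallower were the valleys with floors beside STI1, an Hsp90 co-chaperone gene on XV (−0.84 ± 0.11), at MRPL3, a mitochondrial ribosomal protein gene on XIII (−1.02 ± 0.08), and at ROM2, an exchange factor for Rho1 on XII (−0.98 ± 0.06). At a level of 0.25 below the median the valley at MRPL3 measured 31.4 kb.

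Borders between hills and valleys were gradual. Over 480 borders without a gap, the mean of the 4 kb on the hill side exceeded that on the valley side by a median of 0.51, with an interquartile range of 0.36 to 0.68. From floor to neighbouring summit the signal climbed by a median of 1.57, or 2.96-fold, over 16.4 kb, and the interquartile range of that distance was 11.0 to 25.4 kb. The 237 borders that rose and the 243 that dropped with increasing coordinate had the same median step, 0.51.

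Steps over 1 were found at 22 borders. The steepest lay in ARG4 on VIII (141.1 kb), an arginine biosynthesis gene, where the mean went from 0.55 ± 0.12 to −0.94 ± 0.09, a step of 1.497 ± 0.15 or 2.82-fold between adjoining 4 kb stretches. It ends the hill of the centromere of VIII. SDS23 on VII (396.2 kb) had a step of 1.39 ± 0.11, AUS1, a sterol transporter gene on XV (351.5 kb), 1.25 ± 0.15, and DSE2 on VIII (386.02 kb) 1.2001 ± 0.14. The fifth, beside RPL10 on XII (283.6 kb), a gene for a protein of the large ribosomal subunit, was 1.18 ± 0.19. With 2 kb on each side the steps were 1.25 at ARG4, 0.94 at SDS23, 0.88 at DSE2, 0.77 at AUS1 and 0.50 at RPL10.

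Chromosome arms differed in level, and short arms tended to be higher. Of the 32 arms, 18 had a median above 0. Among the 10 arms shorter than 200 kb, 8 did. The count was 8 of 14 for arms between 200 and 500 kb and 2 of 8 for arms of 500 kb or more. In 12 of the 16 chromosomes the shorter arm had the higher median, the exceptions being I, VI, XI and XVI. Across the 32 arms Pearson's r between length and median was −0.618, a description of 1 array in which the arms share their hybridisation and adjacent arms their centromere.

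Highest of the arms was the left arm of III, with a median of 0.53, quartiles at 0.10 and 0.82, and 86.5% of its probes in stretches above the genome median. The right arm of III followed at 0.29. Lowest was the right arm of IV, the longest at 1076 kb, with −0.22 and 40.2% of its probes in high stretches, and next came the right arm of XI with −0.17 and 39.8%. The widest gaps between the arms of 1 chromosome were on XII, with 0.22 on the left and −0.15 on the right, and on XV, with 0.24 and −0.07. Quartile ranges of all arms overlapped one another, so an arm's level was a small shift on top of its hills and valleys.

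Centromeres and ends weigh more in a short arm, and both stood apart from the rest. With probes within 30 kb of the centromere and 20 kb of the outermost probe left out, the shorter arm was still the higher in 12 of 16 chromosomes, r was −0.479, and 15 of the 32 arms had a median above 0. The left arm of III was then highest with 0.61. The right arm of I, the shortest of all at 78.3 kb, was lowest with −0.48, followed by the right arm of XI with −0.33. By the mean over all its probes the right arm of I was also the lowest arm, at −0.17 against −0.11 for the right arm of IV.

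**Figure D5:**
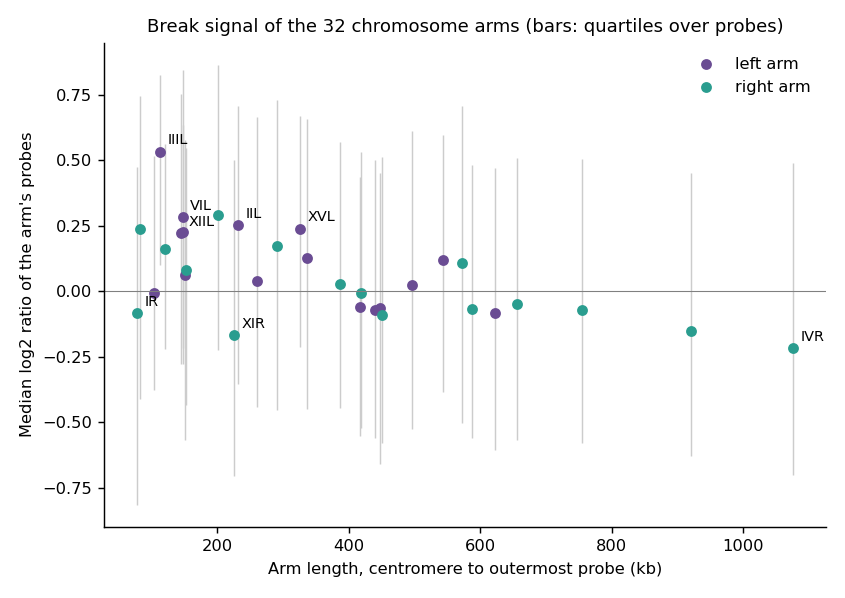
Median log2 ratio of the probes of each of the 32 chromosome arms (vertical axis) against arm length in kb, left arms in purple and right arms in green, with grey bars for the quartiles over probes. The left arm of III is highest at 0.53, the right arm of IV lowest at −0.22, and 8 of the 10 arms under 200 kb lie above 0 against 2 of the 8 arms of 500 kb or more.

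Centromeres, which replicate early in budding yeast, sat inside broad hills. On 15 of the 16 chromosomes the centromere lay in a hill, with a median width of 47.6 kb (26.4 to 64.3 kb), and 14 of these 15 were above the 75th percentile of hill width. A wide hill is more likely than a narrow one to hold any given point, so wide hills would be frequent at other positions too. The share of other positions that lie in hills of such width was not computed. The exception was VI, where a shallow dip 6.25 kb wide crossed the centromere at −0.09 between flanking hills. Within 20 kb of the centromere the median over chromosomes was 0.56 and at 30 to 60 kb it was −0.02, with the inner value higher on 15 chromosomes and VI again the exception. Medians over probes were 0.58 within 5 kb, 0.64 at 5 to 10 kb, 0.52 at 10 to 20 kb, 0.19 at 20 to 30 kb and −0.14 at 30 to 40 kb. The plateau thus ended between 20 and 40 kb from the centromere.

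Chromosome ends went the other way over a short distance. Probes within 5 kb of the outermost probe had a median of −0.75 and those at 5 to 10 kb −0.31. Further in the signal passed the genome median, with 0.17 at 10 to 20 kb, 0.29 at 20 to 30 kb, 0.26 at 30 to 40 kb and 0.28 at 40 to 50 kb, and it returned to −0.06 at 100 to 150 kb. Among the 31 ends with at least 3 probes, the outer 10 kb had a median below 0 at 25 and lay below the 20 to 40 kb stretch of the same end at 27. The left ends of IX and X, at 0.53 and 0.71, were the highest exceptions. The first summit lay a median of 21.6 kb from the outermost probe. Ends of yeast chromosomes share repeated sequence, so probes there can report several copies at once.

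Genes and the spaces between them had nearly the same signal. The 30287 probes inside protein-coding reading frames had a median of −0.004, with quartiles at −0.53 and 0.57. The 10984 probes outside any annotated gene had a median of 0.010, with quartiles at −0.53 and 0.56. The difference, genic minus intergenic, was −0.014, against a spread of 0.72 within either class, and it was 0.0083 between the means of the classes. With gene positions moved by 1 kb up or down the coordinates it was −0.061 and −0.060. By chromosome the difference ran from −0.12, on XIV, to 0.25, on III, and was positive on 8 of 16.

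After subtraction of the local mean of the probes within 2 kb, a small offset in 1 direction remained. Probes in frames then had a median of 0.036 and intergenic probes 0.010, a difference of 0.026 that was positive on all 16 chromosomes and between 0.0048 and 0.058 in size. The noise SD of 0.35 is the spread of a single probe and does not measure the error of these medians over many probes. Gene positions came from assembly R64 and the build of the probe positions is not stated. With the gene positions moved by 1 kb the difference was −0.0015 in one direction and −0.011 in the other, a move that also puts probes of one class into the other.

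The orientation of the flanking genes moved the medians little against the SD of 0.72 to 0.73 within each orientation. Relative to the local mean, convergent spaces lay above reading frames (0.036), and tandem and divergent ones below. Between divergent genes, where promoters face away from each other across the gap, 3702 probes had a median of −0.03, and −0.009 after subtraction of the local mean. Between genes in tandem 5570 probes had 0.06 and 0.014, and between convergent genes, where transcripts end towards each other, 1656 probes had −0.01 and 0.044. Along reading frames, cut into 10 equal parts from start to stop, the medians stayed between −0.02 and 0.03, and the lowest value relative to the local mean, 0.021, was in the first part. Frames on the W strand had 0.02 and those on the C strand −0.03. By length of the frame the medians lay between −0.06, for frames over 3 kb, and 0.05, for those of 1 to 2 kb.

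Genes therefore carried the level of their neighbourhood. Of 6002 protein-coding genes in the table, 4315 had at least 3 probes, and their means had an SD of 0.65 against a median SD of 0.27 among the probes of 1 gene. The mean was above 0 for 2187 genes (50.7%), above 1 for 309 (7.16%) and below −1 for 189 (4.38%). All probes were above 0 in 1286 genes and below 0 in 1360, while 1669 genes had probes on both sides. Successive genes correlated at 0.844 over 4299 pairs, which share hills and in part probes, and 84.5% of the pairs lay on the same side of the median.

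The 10 highest genes had means between 1.61 and 1.81. CKA2, a catalytic subunit of casein kinase 2 on XV, came first with 1.81 ± 0.09 (SE, 3 probes, the lowest at 1.69). ATG19, a receptor of selective autophagy on the other arm of XV, had 1.81 ± 0.08, MLO50 on XII 1.74 ± 0.08, and FCP1 on XIII, a phosphatase of RNA polymerase II, 1.73 ± 0.17. ATP5 on IV, a subunit of the mitochondrial ATP synthase, had 1.73 ± 0.28 with probes between 1.33 and 2.55. ECM8 on II had 1.72 ± 0.08. KGD2 and EKI1, neighbours on IV in a single hill, had 1.71 ± 0.15 and 1.61 ± 0.18. KGD2 encodes a subunit of the mitochondrial 2-oxoglutarate dehydrogenase. SIC1 on XII, the inhibitor of S-phase cyclin-dependent kinase, had 1.67 ± 0.22, and TRS31 on IV, a subunit of the TRAPP tethering complexes, 1.65 ± 0.05.

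The 10 lowest genes had means between −1.54 and −1.77. NFU1 on XI, which acts in iron-sulfur cluster delivery in mitochondria, was lowest at −1.77 ± 0.56, but 1 of its 4 probes stood at −3.41 and the median of the 4 was −1.34. More even were YKR041W on XI (−1.69 ± 0.06), AIM36 on XIII (−1.63 ± 0.06), AIR1 on IX, an RNA-binding subunit of the TRAMP complex (−1.63 ± 0.05), CVM1 on XIII (−1.61 ± 0.02 over 9 probes) and NBP2 on IV (−1.61 ± 0.11). YCS4 and its neighbour PIG1 on XII had −1.59 ± 0.03 over 12 probes and −1.56 ± 0.07 over 6. TMN2 on IV had −1.55 ± 0.03. CLB6 on VII, a B-type cyclin that helps to start S phase, had −1.54 ± 0.03. Apart from NFU1, the SD over the probes of a gene was 0.19 or less in these valley genes and between 0.09 and 0.55 in the hill genes. Over the whole array the SD about the local mean was 0.30 where that mean was below 0 and 0.38 where it was above.

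Genes for the replication machinery were scattered over both kinds of domain. Of 25 factors that load or fire the replicative helicase, 22 had at least 3 probes, 13 of these were above 0, and the median was 0.22, against 50.7% and 0.01 for all genes. SLD7, a partner of the initiation factor Sld3, was highest with 1.17 ± 0.28, followed by ORC3 (1.12 ± 0.06) and ORC1 (1.00 ± 0.14), subunits of the origin recognition complex. MCM5, a subunit of the helicase itself, was lowest with −1.33 ± 0.05 over 10 probes.

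Checkpoint genes had 10 of 15 above 0 and a median of 0.36, against 50.7% and 0.01 for all genes. LCD1, the partner that brings Mec1 to single-stranded DNA, had the highest mean, 1.12 ± 0.10, and PDS1, the securin gene, the lowest, −1.10 ± 0.02. MEC1 itself had −0.66 ± 0.07 over 26 probes. Both channels came from the same mec1 strain, so this value does not check the genotype. RAD53, the effector kinase below Mec1, had 0.83 ± 0.24.

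Cohesin and condensin genes were split evenly, 6 of 12 above 0, with a median of 0.08, against 50.7% and 0.01 for all genes. SMC1 and SMC2 on VI had 1.29 ± 0.05 and 1.08 ± 0.08, while SCC2 had −1.15 ± 0.06 and YCS4 was lowest. Of 18 genes for repair of double strand breaks, 7 were above 0 and the median was −0.03, beside the same values for all genes. SRS2, a DNA helicase gene, was lowest with −0.85 ± 0.08 over 13 probes. None of these 18 passed 1 or −1, against 7.16% of all genes above 1 and 4.38% below −1. At those shares few of 18 genes would pass. Core histone frames are short. None of the 8 had 3 probes, 7 had 1 or 2, and their values ran from −0.29 at HTB1 to 0.56 at HTA1.

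The smoothed values of 86.5% of the probes lay on the same side of the median on this array and on the array with BPS. On the latter the same measures gave a finer grain. Hills numbered 361 against 295 and valleys 381 against 325, the median hill was 12.9 kb wide against 15.6 kb, and summits lay 28.9 kb apart against 36.5 kb. The correlation reached 0.5 of its first value at 7.25 kb against 7.999 kb. Noise between neighbouring probes was also larger there, 0.42 against 0.35. Its part in the counts was not tested, and with 1 array each the differences have no test.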

How the data were processed

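Feature Extraction 9.5.1 from Agilent is named in the notes on processing (per the submitters' processing notes) for these 2-colour tiling arrays. In the deposited table there is 1 linear ratio per probe and array, called normalized by its name. The normalization, the numerator and the build are not given in the sources used here. Scanner intensities were not used here, and the brightness of probes over background is unknown.

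The ratio column of the recovery without BPS was converted to log2 and centred on its median, with no filter. Smoothing, domains, autocorrelation and arms were computed with Python 3.11.15, numpy 2.4.6 and pandas 2.3.3, and the functions were tested on simulated tracks. Genes were named and ordered by RefSeq's table for assembly R64, whose coordinates are not reported. Strand was read from the systematic names. Centromeres were placed between the first genes of both arms.

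The widest domains, steepest borders, highest and lowest genes and arms, and the extremes of each gene list were named, except 1 that is not reported here. Hills by shape, MEC1, RAD53 and other list members were added after their values were seen. The measures and lists were chosen with earlier results of these data known. The number of arrays, 1, limits the precision.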

Additional observations from a re-analysis of the deposited data

How the results depend on the processing

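Of 99 values recomputed for the main measures under other settings, 88 kept their direction and moved by less than 1.5 times (counts, widths, distances), 0.05 log2 units (differences) or the 95% Wilson interval (shares). Centring on the mean shifts all probes alike, so the autocorrelation distances and the genic differences could not change under it. For named genes, arms and lists it is a fixed shift of 0.017. Averaging within 1 kb either side put hill summits a median of 23.9 kb apart. The share of probes above 1 and below −1 was 4.80% and 3.95% after centring on the mean, 9.48% and 7.72% without smoothing, and 3.08% and 2.81% with 4 kb either side, and the share above 1 was 5.67% without chromosomes III and VI. The difference between genic and intergenic probes turned to 0.0083 with means in place of medians, and the one relative to the local mean to −0.0015 and −0.011 with gene positions moved by 1 kb, which mixes the classes. The latter was 0.036 with means and with a local mean within 5 kb. Without subtraction of the local mean, moved gene positions gave −0.061 and −0.060, against −0.014 as reported. Both count as kept, because the limit of 0.05 is larger than the reported difference itself. Among 203 values for named items, 38 moved past the limit set for their kind and 4 changed sign. Those 4 were 0.35 and 0.12 at HTB1 and −0.33 at HTA1 with positions moved by 1 kb, and 0.030 for the repair list with medians over probes. With positions moved down by 1 kb, the means at TRS31, SIC1 and FCP1 were 0.61, 0.94 and 0.98. CKA2 and ATG19 passed their limits in both directions, with 1.23 and 1.36 moved up and 1.21 and 1.35 moved down. ATP5, KGD2 and EKI1 stayed within the limit. For a gene with more than 1 probe the limit was the SD of its probes, so genes with scattered probes pass it less easily. ATP5 had 1.22 moved up and 1.27 moved down, against 1.73 as reported. The SE given for a gene does not cover these moves. The causes were not tested. Settings for genes, for 2 kb borders and for arms without centromeres and ends were chosen after seeing the data. No paired analysis was possible because each group has 1 array.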

Other observations

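Single probes that stood far from their neighbours were almost always low ones, and most lay where the smoothed signal was high. Among 41366 probes with at least 6 probes in their window, 293 were more than 1.5 log2 units below the mean of the other probes within 2 kb, and 13 were as far above it. Of the 293, 270 (92.2%) lay where the smoothed signal was above the genome median, against 50.4% of all these probes. They made up 1.53% of the probes with a smoothed value above 0.5 (166 of 10873) and 0.040% of those below −0.5 (4 of 10003). The cut is relative to the local mean, and the 1st percentile of all probes was −1.51, so few probes could pass it in valleys. These shares therefore follow in part from the cut. The median value of the 293 was −1.25, and 2 pairs of neighbours were found among them, so the dips were nearly all 1 probe wide. Intergenic probes were 34.8% of the 293 and 26.4% of all, and probes within 0.5 kb of a tRNA gene 2.39% and 2.38%.

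The low probes were largely the same ones on the array with BPS. There 211 of the 293 were also more than 1.5 log2 units below their neighbours, against 586 of all 41366 probes. None of the 293 was as far above there, and their median deviation was −2.09. Over all 41366 probes the deviations of the arrays correlated at 0.464, on arrays of the same probes. Probes at YHR210C on VIII (520.7 kb, −2.89 without and −2.57 with BPS) and beside PAN6 on IX (77.3 kb, −2.77 and −3.40) are examples. Fewer of the high probes were shared, since 1 of the 13 was also above by 1.5 with BPS, against 38 of all 41366 probes. The most extreme, in BFR1 on XV (719.4 kb), had the highest ratio of the array, 19.5, and a deviation of 4.47, against −0.27 with BPS. The lowest, in MRK1 on IV (314.2 kb), had −4.43 against −0.12. These probes were picked after their values were seen, and the base composition of probes was not analysed here.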
